A study of Mus musculus with 24 samples.

Results

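The proteasome is the barrel-shaped protease that degrades most ubiquitin-tagged proteins of the cell. Its genes were read in sciatic nerve of a mouse model of Charcot-Marie-Tooth 1B neuropathy. A gene was counted as a member where a probe set listing its symbol alone began with Psma, Psmb, Psmc, Psmd, Psme, Psmf or Psmg followed by a digit, and the probe set with the highest mean over all arrays stood for the gene. This gave 48 of the 12393 genes measured: 15 core particle genes, 20 regulatory cap genes, 3 immunoproteasome genes, 4 activators or inhibitors, 4 assembly chaperones, and Psmc3ip and Psme3ip1, which match by symbol and encode partner proteins rather than subunits. One further probe set, shared by Psme2 and Psme2b, was left out because its signal cannot be given to 1 gene.

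The arrays came from WT, Chop null, S63del and S63del/Chop null mice at postnatal day 5 (P5), P28 and 4 months, with 2 arrays for each of the 12 groups and 24 in all. The S63del and S63del/Chop null mice carry the S63del mutation, and the Chop null and S63del/Chop null mice lack Ddit3, the gene for the stress factor CHOP. All nerves had the perineurial sheath removed before freezing. The labels name no treatment, promoter, strain or sex. They call the arrays of a group biological replicates and do not say whether nerves of several mice were pooled, so p-values measure the spread between these arrays. Per the series' design text, P5 stands for the first effects of the mutant protein as myelination starts, P28 for the height of myelination, and 4 months for the age at which loss of Chop visibly improved the nerve.

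In background terms, the core particle is a stack of outer rings of alpha subunits and inner rings of beta subunits. Of the beta subunits, Psmb5, Psmb6 and Psmb7 carry the active sites, and on exposure to interferon cells can build in Psmb8, Psmb9 and Psmb10 in their place, which changes the peptides made for antigen presentation. The cap binds ubiquitin chains, removes them, and threads the substrate into the core with a ring of ATPases, the Psmc proteins. Cells short of proteasome activity are known to raise subunit genes together through the factor Nfe2l1, which binds antioxidant elements in their promoters. In Schwann cells of S63del mice the mutant protein is known to be retained in the endoplasmic reticulum, whose misfolded proteins are handed to the proteasome.

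The sequences just before the start sites are shown for catalytic subunits that moved in opposite ways between P5 and 4 months in WT. They are Psmb5 and Psmb6 for the constitutive core and Psmb8 and Psmb9 for the immunoproteasome. Psmb7 of the constitutive core also fell, but no promoter window was found for it. Each sequence shown is 120 bases, 5′ to 3′ on the gene's strand, from RefSeq promoters of build GRCm38.p6. Capitals mark a match to TGACNNNGC, the antioxidant element, in the constitutive genes, and to TTCNNNGAA, the interferon-linked GAS element, in Psmb8.
Psmb5, chr14:54617996-54618115, minus strand: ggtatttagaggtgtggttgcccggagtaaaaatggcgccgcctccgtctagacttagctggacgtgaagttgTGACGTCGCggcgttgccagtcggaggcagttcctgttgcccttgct
Psmb6, chr11:70525237-70525356, plus strand: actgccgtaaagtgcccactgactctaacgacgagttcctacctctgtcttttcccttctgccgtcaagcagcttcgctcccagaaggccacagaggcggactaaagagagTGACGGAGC
Psmb8, chr17:34198075-34198194, plus strand: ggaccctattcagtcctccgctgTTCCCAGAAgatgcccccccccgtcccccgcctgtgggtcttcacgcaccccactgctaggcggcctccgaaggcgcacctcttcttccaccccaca
Psmb9, chr17:34187331-34187450, minus strand: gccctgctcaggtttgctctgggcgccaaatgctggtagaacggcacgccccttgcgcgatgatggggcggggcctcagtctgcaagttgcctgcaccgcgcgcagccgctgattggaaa

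Counted back from the start site, the match began at -47 in Psmb5, at -9 in Psmb6 and at -97 in Psmb8, and none of the searched motifs lay in the stretch shown for Psmb9. Windows of 250 bases before to 50 after a start site were found for 40 of the 48 genes, with 43 windows in all. On either strand, TGACNNNGC lay in 6 of these 43 windows and in 12.4% of all 32851 windows, and TTCNNNGAA in 3 and in 8.30%. The interferon response element GAAANNGAA lay in 7 and in 8.56%, and the heat shock element GAANNTTC in 3 and in 7.86%. A match is a description of letters and not a site.

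Values are log2 expression as deposited, array medians lay between 6.84 and 7.03, and changes are log2 differences ± SE from limma with 1 spread per gene over all 24 arrays; a gene is called at an adjusted p under 0.05 among all 12393 genes. Ddit3 read 6.60 to 7.37 in the 12 arrays labelled Chop null or S63del/Chop null and 7.61 to 9.59 in the other 12. The 7 measured markers of myelinating Schwann cells averaged between 11.11 and 12.04 on every array, far above the array medians. The mean of 8 skeletal muscle markers varied from 6.69 to 12.25 between arrays. Arrays at P28 had a narrower spread of values over all genes (interquartile range 2.77 to 3.41) than those at P5 (3.71 to 3.78) or 4 months (3.78 to 3.85), and Chop null P28 replicate 2 stood apart with the narrowest. Most members were bright: Psma8, an alpha subunit known from testis, was the only member under the 40th percentile of genes, with a mean of 4.12.

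At P5 every core and cap gene had a higher mean in S63del nerve than in WT, with medians of 0.49 and 0.41, while the medians were 0.13 for the immunoproteasome, 0.09 for the activators and inhibitor and 0.09 for the assembly chaperones. In limma 10 of the 48 members were called higher and 0 lower, where 1.15% of all genes were called higher. The members' median difference was 0.35, against -0.02 over all genes and -0.001 over the 2479 brightest genes. All 15 core genes and all 20 cap genes lay above 0, by 0.28 to 0.86 in the core and 0.08 to 0.64 in the cap, and 30 members had an unadjusted p under 0.05 against 1355 of all genes. Leaving out S63del replicate 1 gave 4 calls, S63del replicate 2 gave 1, WT replicate 1 gave 3 and WT replicate 2 gave 1, while the members' median kept between 0.33 and 0.39.

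Psmb3, a structural beta subunit, showed the largest difference. It read 10.87 and 10.67 in WT and 11.58 and 11.68 in S63del, a rise of 0.86 ± 0.15 (1.82-fold, adjusted p = 0.0037). No S63del array reached down to a WT array. Psmb2, another structural beta subunit, read 10.24 and 10.11 in WT and 10.72 and 10.90 in S63del (0.64 ± 0.13, adjusted p = 0.012). The remaining structural subunits Psmb1 and Psmb4 were 0.33 and 0.38 higher and not called.

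Of the catalytic subunits 1 of 3 was called. Psmb5, which cuts after hydrophobic residues, read 11.13 and 10.98 in WT against 11.55 and 11.54 in S63del, a rise of 0.49 ± 0.10 (adjusted p = 0.012). Psmb6 and Psmb7, the other active beta subunits, were 0.47 ± 0.13 and 0.33 ± 0.12 higher, with adjusted p = 0.07 and 0.25. For each of the 3 genes both S63del arrays lay above both WT arrays.

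In the alpha ring, which gates the entry to the core, Psma5 read 11.20 and 11.19 in WT and 11.78 and 11.95 in S63del, a rise of 0.68 ± 0.13 (1.60-fold, adjusted p = 0.0054). Psma2 rose by 0.50 ± 0.12 (adjusted p = 0.039). The other 6 alpha genes were 0.28 to 0.60 higher without a call, Psma8 included.

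Among cap genes the ATPase Psmc1 rose by 0.45 ± 0.10, and the other 5 ATPases were 0.27 to 0.64 higher without passing. Psmd11, a scaffold subunit of the lid that joins it to the core, read 10.98 and 11.08 in WT and 11.69 and 11.65 in S63del. Its rise of 0.64 ± 0.10 had the smallest adjusted p of the members (0.000842). Psmd1 and Psmd2, the largest scaffold subunits, rose by 0.41 ± 0.10 and 0.58 ± 0.12. Psmd4, which captures ubiquitin chains, rose by 0.52 ± 0.12. The genes of the lowest cap differences were Psmd9 (0.08 ± 0.13), Psmd5 (0.09 ± 0.13), Psmd7 (0.17 ± 0.23) and Psmd10 (0.18 ± 0.19), of which Psmd5, Psmd9 and Psmd10 encode chaperones that help build the ATPase ring and leave the finished cap.

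**Figure D1:**
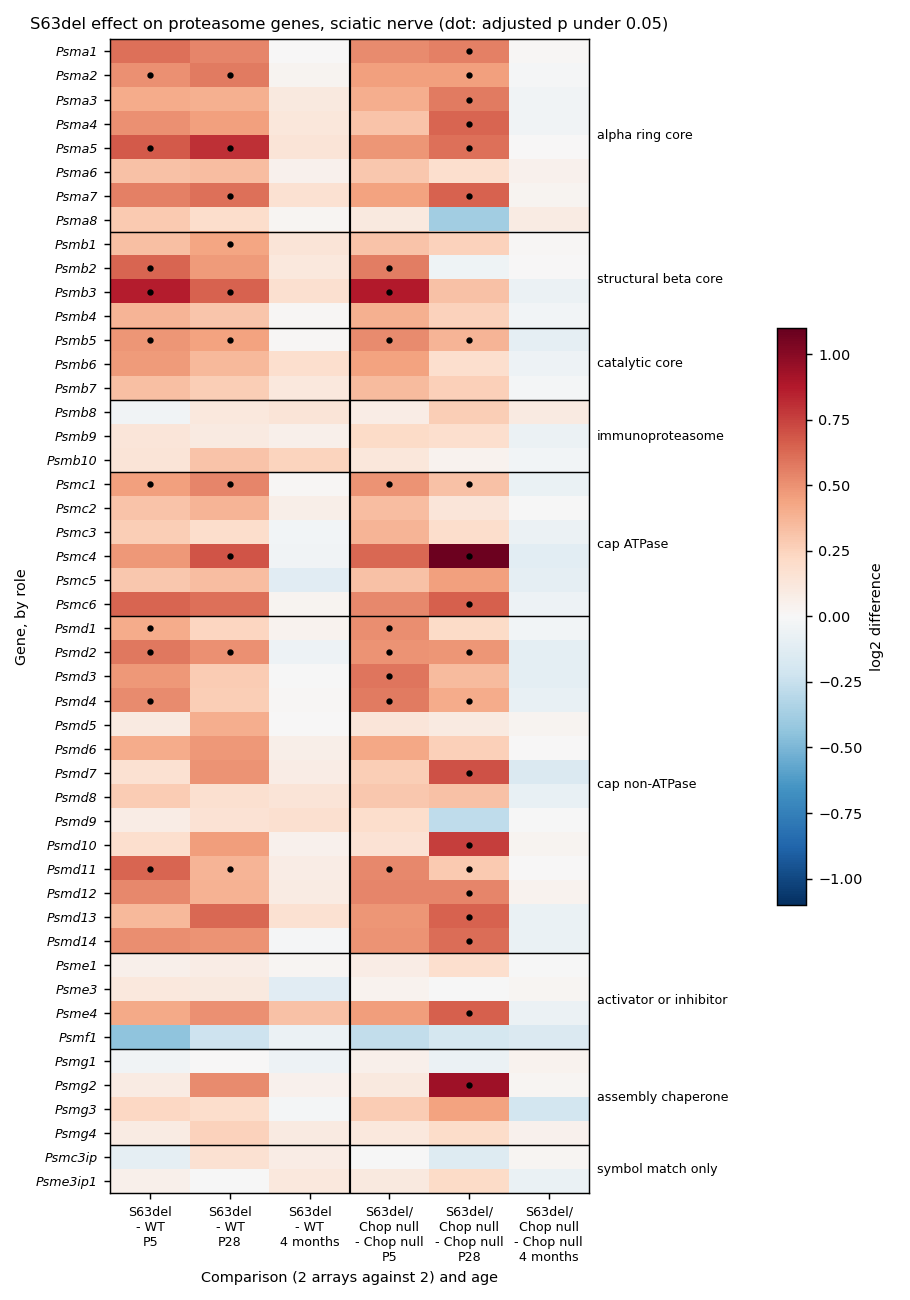
Log2 differences of all 48 genes, ordered by role, for S63del minus WT (left columns) and S63del/Chop null minus Chop null (right columns) at P5, P28 and 4 months, with 2 arrays against 2; red is higher and blue lower in mice with S63del, and a dot marks an adjusted p under 0.05. Dots lie among core and cap genes at P5 and P28, with Psme4 and Psmg2 outside them at P28 without Chop, and none lies at 4 months.

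Outside the core and cap no member was called at P5. Psmf1, the inhibitor that binds the ends of the core, read 9.06 and 8.98 in WT and 8.57 and 8.59 in S63del at P5. The difference of -0.44 ± 0.16 was the lowest of all members and did not pass (adjusted p = 0.26). Its 4 probe sets read -0.27 to -0.61, all below 0. Psme4, an activator linked to DNA repair and spermatogenesis, was 0.42 ± 0.14 higher (adjusted p = 0.19), whereas the activators Psme1 and Psme3 differed by 0.05 ± 0.10 and 0.12 ± 0.12. The assembly chaperones Psmg1 to Psmg4 lay between -0.04 and 0.23.

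The same contrast without Chop, S63del/Chop null against Chop null, was added after the data were seen. Its differences share no array with those of S63del against WT, while the calls of both use the same spread per gene, fitted over all arrays. At P5 it called 9 members higher and 0 lower, with 0.904% of all genes called higher, and a members' median of 0.36. Those called were Psmb2, Psmb3, Psmb5, Psmc1, Psmd1, Psmd2, Psmd3, Psmd4 and Psmd11. Psmb3 read 10.76 and 10.70 in Chop null and 11.54 and 11.67 in S63del/Chop null, a rise of 0.88 ± 0.15 (adjusted p = 0.0039). Across the 48 genes the differences in the 2 backgrounds had r = 0.938, against 0.779 across all genes, a description over genes that share arrays and are not replicates. At P28 it was 0.689 against 0.690, and at 4 months 0.200 against 0.078. Psmf1 was again lowest (-0.27 ± 0.16, not called). With Chop null replicate 1, Chop null replicate 2, S63del/Chop null replicate 1 or S63del/Chop null replicate 2 left out, 1, 0, 1 and 2 members were called.

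**Figure D2:**
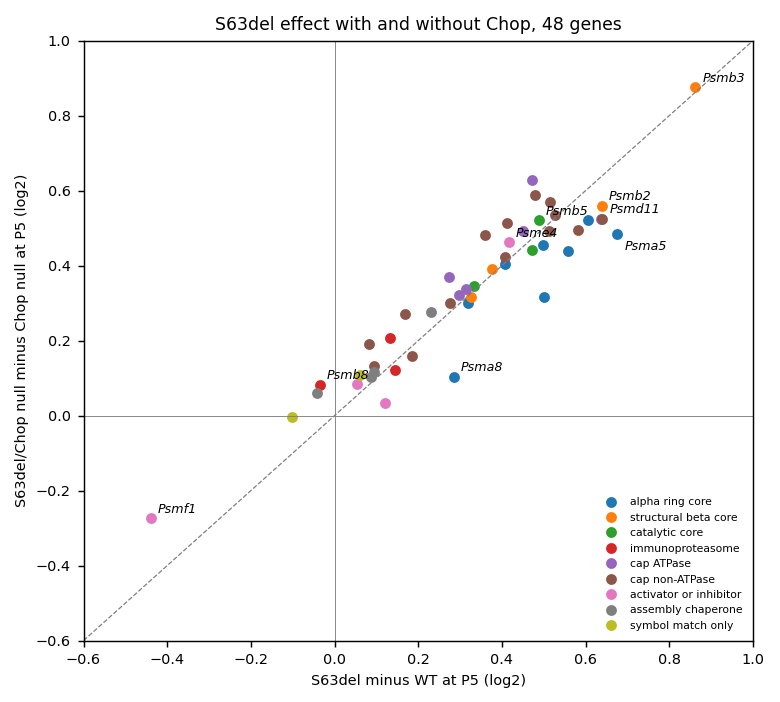
The S63del effect at P5 in 48 genes, as S63del minus WT (horizontal axis) and S63del/Chop null minus Chop null (vertical axis), both log2 and each from 4 arrays that the other does not use; colours mark the role and the dashed line equal effects. Core and cap genes lie above 0 on both axes, Psmb3 is the highest on both (0.86 and 0.88) and Psmf1 the lowest (-0.44 and -0.27).

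Taking the mutation with and without Chop as 4 carrier arrays against 4 others, also added after the data were seen, 27 members were called higher at P5 and 0 lower, with 2.87% of all genes called higher. They were 13 of 15 core genes, 13 of 20 cap genes and Psme4. In 34 of the 48 genes all 4 carrier arrays lay above all 4 others, which held for 11% of all genes. Those outside the 34 were Psma8, Psmb8, Psmb9, Psmd5, Psmd9, Psmd10, Psme1, Psme3, Psmf1, Psmg1, Psmg3, Psmg4, Psmc3ip and Psme3ip1. For Psmf1 all 4 carrier arrays lay below the 4 others (-0.36 ± 0.12, adjusted p = 0.087). The largest rises were those of Psmb3 (0.87 ± 0.11), Psmb2 (0.60 ± 0.09), Psmd11 (0.58 ± 0.07) and Psmc6 (0.58 ± 0.13). Without S63del replicate 2, WT replicate 2, Chop null replicate 1 or Chop null replicate 2, the calls came to 17, 16, 17 and 17.

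Cell type markers also differed with the mutation at P5. The 7 measured markers of myelinating Schwann cells averaged 11.17 to 11.36 in the 4 carrier arrays and 11.66 to 11.73 in the others, with 4 of 7 called lower (Mbp, Pmp22, Mag and S100b), where 3.1% of all genes were called lower. The 7 endothelial markers averaged 7.57 to 7.78 against 7.92 to 8.17, and 2 of 7 were called lower (Kdr and Vwf). In S63del against WT most of the fibroblast and perineurial list also lay lower at P5. These were Itgbl1, Col1a1, Col1a2, Col3a1, Dcn and Pdgfra, while Lum did not. Calls of that list at P5 are not given here. Macrophage markers overlapped (8.70 to 8.90 against 8.65 to 8.85) and 0 of 12 were called. In whole nerve, fewer cells of a type and less RNA per cell cannot be told apart, and the part of these shifts in the proteasome values was not tested.

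At P28 every core and cap gene again had a higher mean in S63del than in WT. Of the 48 members 10 were called higher and 0 lower, with 3.01% of all genes called higher. The median of the members was 0.37, against 0.01 over all genes and 0.11 over the 2479 brightest genes. The WT and Chop null arrays at P28 had narrower value ranges (interquartile range 2.77 to 3.25) than the S63del and S63del/Chop null arrays (3.27 to 3.41), and the part of that in these calls was not tested. The arrays of P28 fitted alone gave 0 calls. With S63del replicate 1, S63del replicate 2, WT replicate 1 or WT replicate 2 left out, 1, 4, 2 and 9 members were called.

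Psma5 again led the alpha ring. It read 9.85 and 9.89 in WT and 10.66 and 10.69 in S63del, a rise of 0.80 ± 0.13 (1.74-fold, adjusted p = 0.0015). The WT and S63del arrays lay far apart for their own spread. Psma7 and Psma2, of the same ring, rose by 0.61 ± 0.17 and 0.57 ± 0.12. Psmc4, a cap ATPase, read 9.43 and 9.59 in WT against 10.29 and 10.13 in S63del, a rise of 0.69 ± 0.18 (adjusted p = 0.038).

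Psmc1 rose by 0.53 ± 0.10, Psmd2 by 0.50 ± 0.12, Psmd11 by 0.37 ± 0.10, Psmb3 by 0.65 ± 0.15 and Psmb5 by 0.44 ± 0.10. Psmb1 rose by 0.43 ± 0.10 on its brightest probe set, while the mean of its 3 probe sets gave -0.09, the dimmer ones reading 0.16 and -0.88. Several probe sets per gene, at or above the 40th percentile, measured 16 members with 38 probe sets, and their S63del differences from WT had 1 sign within 15 of the 16 genes at P5 and within 13 at P28. The exceptions were Psme3 at both ages, and Psmd4 and Psmd11 at P28, where a dimmer probe set read -0.15 and -0.14. Of the 10 genes called at P5 and the 10 called at P28, 7 were the same (70.0% of each list): Psma2, Psma5, Psmb3, Psmb5, Psmc1, Psmd2 and Psmd11. Both comparisons have the mutation in common but no array, while their calls use the same spread per gene. The same overlap over all genes is not given for these lists.

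Without Chop at P28, 20 members were called higher and 0 lower, where 9.77% of all genes were called higher. Psmc4 rose by 1.08 ± 0.18, Psmg2 by 0.94 ± 0.24, Psmd10 by 0.76 ± 0.19 and Psmd7 by 0.70 ± 0.23. Chop null P28 replicate 2 read low in these genes. Psmg2, a chaperone that starts the alpha ring, read 8.86 and 7.61 in the 2 Chop null arrays and 9.25 and 9.09 in S63del/Chop null, and Psmc4 read 9.60 and 8.85 against 10.33 and 10.28. Without that array 3 members were called, without S63del/Chop null replicate 1 also 3, and without S63del/Chop null replicate 2 there were 7. With array weights, or with the arrays of P28 fitted alone, 0 were called. Carriers against others at P28 gave 31 members higher and 0 lower (16.1% of all genes higher; 18 members with array weights and 3 with P28 fitted alone), of which 12 were core, 17 cap, Psme4 and Psmg2. All 4 carrier arrays lay above the 4 others in 27 of the 48 genes, and in 12.1% of all genes. Of the carrier calls, 25 were shared with P5, which is 92.6% of the 27 and 80.6% of the 31. These calls also use the same spread per gene at both ages, and the same overlap over all genes is not given here.

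At P28, where 16.1% of all genes were called higher in carriers and 11.9% lower, marker counts stood as follows. Macrophage markers averaged 9.35 to 9.59 in carriers and 9.16 to 9.30 in the others, with 4 of 12 called higher (Aif1, Adgre1, C1qb and Ctss) and 0 lower. Of 6 pan-leukocyte markers Ptprc, Coro1a and Cd52 were called higher, with means of 8.47 to 8.54 against 7.98 to 8.35. Skeletal muscle markers averaged 8.10 to 11.77 in carriers and 10.03 to 12.25 in the others, and 1 of 8 was called lower (Myh1), a share near that of all genes. In S63del against WT all 8 muscle markers lay below 0 (-2.41 to -2.02) without a call. Endothelial markers averaged 8.06 to 8.38 against 8.14 to 8.46 and 1 of 7, Kdr, was called lower, while in S63del against WT all 7 lay below 0 (-0.53 to -0.26) without a call. Itgbl1, of the fibroblast and perineurial list, was called lower in carriers. Myelinating Schwann cell markers overlapped (11.87 to 12.04 against 11.76 to 11.90), with Egr2 the single call, higher, 1 of 7 being again near the share of all genes. The part of these shifts in the proteasome values was not tested.

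At 4 months no member was called in S63del against WT, where 0% of all genes were called in either direction. In limma 2 members and 577 of all genes had an unadjusted p under 0.05, and the members ranged from -0.12 to 0.32 with a median of 0.05. Psmb5 read 10.51 and 10.48 in WT and 10.54 and 10.50 in S63del, with overlapping arrays. Psma5 read 10.62 and 10.40 against 10.69 and 10.62, and Psmb3 read 10.42 and 10.22 against 10.51 and 10.47. The highest member was Psme4 (0.32 ± 0.14). Without Chop the comparison again called 0 members (0% of all genes), with 0 of the 48 and 181 of all genes at an unadjusted p under 0.05. Carriers against others called 0 members, with 0% of all genes called and, for the members, 0 unadjusted p under 0.05 in limma. In 0 of the 48 genes did the 4 carrier arrays all lie above the others, against 1.22% of all genes. In S63del against WT the skeletal muscle markers all lay above 0 (0.88 to 3.97), in the opposite direction to P28. Macrophage markers also all lay above 0 (0.01 to 0.59), and no marker of either list was called. The part of these markers in the members' values was not tested.

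**Figure D3:**
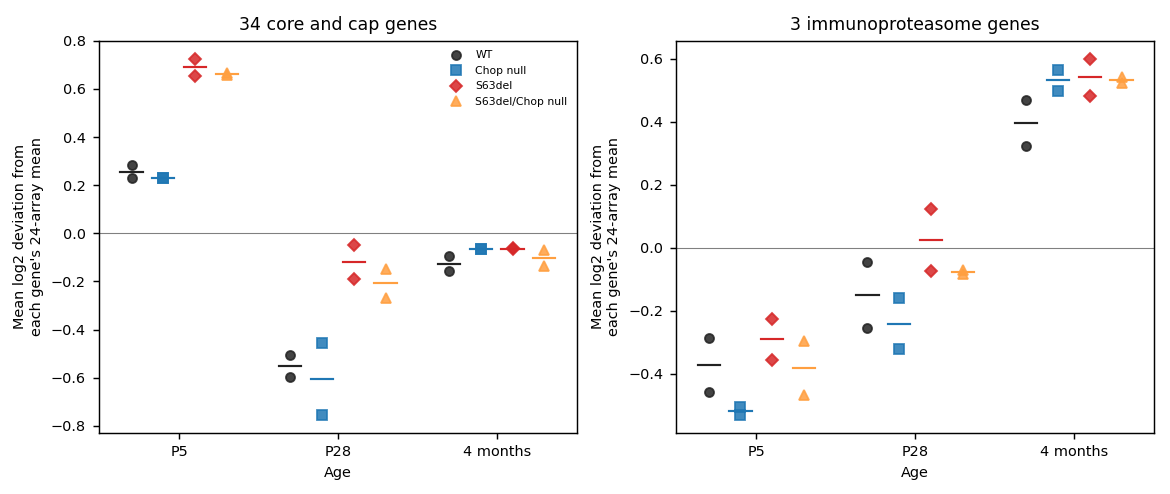
Mean log2 deviation of each array from each gene's own mean over the 24 arrays, for the 34 core and cap genes other than Psma8 (left) and the 3 immunoproteasome genes (right), by age and genotype; points are single arrays and bars the mean of 2. Carriers of S63del lie at 0.65 to 0.73 and other mice at 0.23 to 0.28 at P5, at -0.27 to -0.05 and -0.75 to -0.45 at P28, and all 8 arrays of 4 months lie between -0.15 and -0.06; the immunoproteasome mean rises with age in each genotype.

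The change of the S63del effect with age was tested as a difference of differences. For S63del against WT alone, 4 months minus P5 called 0 members, with 0.145% of all genes called higher and 0.137% lower, and P28 minus P5 also called 0 (0.242% higher and 0.234% lower). In limma 15 members had an unadjusted p under 0.05 for 4 months minus P5 and 0 for P28 minus P5. For 4 months minus P5 the skeletal muscle markers all lay above 0 (1.94 to 3.70) without a call. The Schwann cell marker S100b was called higher (1.12 ± 0.17, adjusted p = 0.0055). The part of these markers in the members' values was not tested. With carriers pooled, 8 members were called lower for 4 months minus P5 (0.694% of all genes): Psmb3 (-0.81 ± 0.15), Psmd2, Psmd3, Psmd4, Psmb5, Psmd11, Psmc1 and Psmd1. For 4 months minus P28, 7 were called lower (1.98% of all genes): Psmc4 (-0.97 ± 0.18), Psma5, Psmd14, Psmd2, Psma2, Psmc1 and Psmb5. Over the 2479 brightest genes the median change was 0.003 for 4 months minus P5 and -0.13 for 4 months minus P28. Carrier arrays had wider value ranges than the others at P28, as given above, and not at 4 months. The part of that in these calls was not tested. Leaving out single arrays gave 5 to 10 calls in the first comparison, with 5 without Chop null P5 replicate 1, Chop null P5 replicate 2, S63del P5 replicate 2 or WT P5 replicate 2. In the second it gave 28 without Chop null P28 replicate 1, 2 without S63del P28 replicate 1, 3 without Chop null 4 months replicate 1 or either S63del array of 4 months, and 4 without Chop null 4 months replicate 2, WT P28 replicate 1, or S63del/Chop null replicate 1 of P28 or 4 months.

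Averaged over the 3 ages, S63del against WT called 25 members higher and 0 lower (3.84% of all genes higher). These were 11 core genes, 12 cap genes, Psme4 (0.41 ± 0.08) and Psmb10 (0.23 ± 0.07, adjusted p = 0.041). Leaving out 1 of the 12 arrays gave 13 to 29 calls, and 13 without S63del P5 replicate 2, S63del P28 replicate 1 or either S63del array of 4 months. It gave 14 without WT P5 replicate 2 and 16 without WT P28 replicate 1.

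Comparing mutant nerve with and without Chop addresses whether the genes depend on CHOP. S63del/Chop null against S63del called 0 members at P5 (0.0161% of all genes), P28 (0.00807%) and 4 months (0.00807%), and 0 averaged over ages (0.00807%). In limma 0, 3, 0 and 0 members had an unadjusted p under 0.05. Psmb5 read 11.51 and 11.47 in S63del/Chop null at P5, which is 0.05 below S63del with an SE of 0.10. Psma5 read 11.60 and 11.85, a difference of -0.14 ± 0.13, and Psmd11 differed by -0.07 ± 0.10. All members lay between -0.32 (Psma8) and 0.21 (Psmc4) at P5.

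Loss of Chop without the mutation also called 0 members at P5 (0% of all genes), P28 (0%) and 4 months (0.00807%). The interaction, which tests whether the S63del effect differs without Chop, called 0 members at each age (0% of all genes at P5, P28 and 4 months). Unadjusted p under 0.05 in limma were found in 0, 3 and 1 members for loss of Chop and in 0, 2 and 0 for the interaction. At P5 the interaction of single members ranged from -0.19 to 0.17. Without Chop null P28 replicate 1, so that replicate 2 stood alone for its group, loss of Chop at P28 gave 17 calls and the interaction at P28 gave 12.

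None of the 3 immunoproteasome genes was called in S63del against WT at a single age. Psmb8 read 7.998 and 7.74 in WT and 7.95 and 7.72 in S63del at P5, and 8.15 and 8.31 against 8.43 and 8.26 at P28. Its differences were -0.04 ± 0.14 and 0.11 ± 0.14. Psmb9 differed by 0.13 ± 0.16 at P5 and 0.10 ± 0.16 at P28, with overlapping arrays at both ages. Psmb10, the replacement for Psmb7, was 0.15 ± 0.11 higher at P5, 0.31 ± 0.11 at P28 and 0.24 ± 0.11 at 4 months, and was called in the average over ages given above. In the background without Chop the mutation shifted Psmb10 by 0.12 ± 0.11, 0.04 ± 0.11 and -0.03 ± 0.11 at these ages, with no call. The interaction for Psmb10 was -0.28 ± 0.16 both at P28 and at 4 months, also uncalled. Loss of Chop alone gave 0.24 ± 0.11 for Psmb10 at 4 months, again uncalled. Of 10 measured partners in antigen processing and 13 interferon-induced genes, 0 were called in S63del against WT at either P5 or P28. At P5 the partners' median was 0.17, with Erap1, which trims peptides, at 0.48 ± 0.15.

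**Figure D4:**
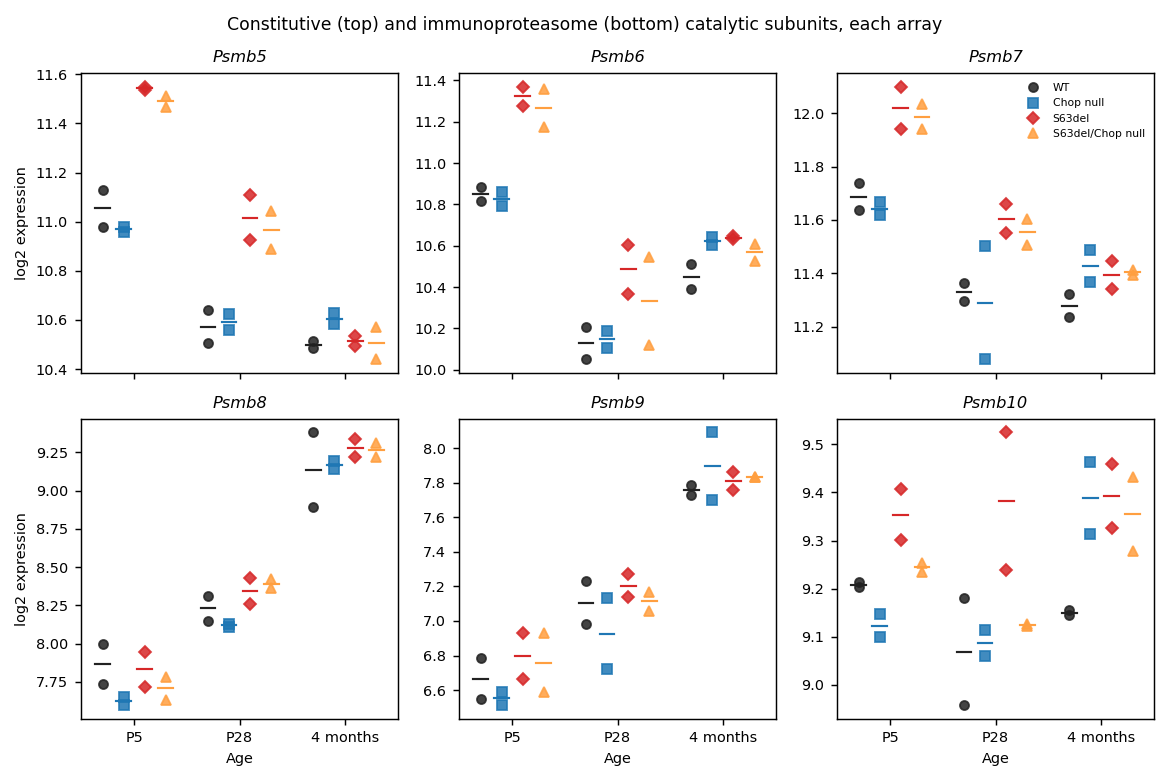
Log2 expression of the constitutive catalytic subunits Psmb5, Psmb6 and Psmb7 (top) and their immunoproteasome counterparts Psmb8, Psmb9 and Psmb10 (bottom) in each of the 24 arrays, by age, with a bar at the mean of 2 arrays. S63del and S63del/Chop null arrays lie above the others for the top genes at P5, whereas Psmb8 and Psmb9 climb with age in every genotype.

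With age most core and cap genes fell in WT nerve while Psmb8 and Psmb9 rose. Between P5 and P28 in WT, 39 members were called lower and 2 higher, where 28.2% of all genes were called lower and 31.3% higher. The median was -0.70, against 0.08 over all genes and -0.23 over the 2479 brightest genes. Psma5 read 11.20 and 11.19 at P5 and 9.85 and 9.89 at P28, a fall of 1.32 on the log2 scale with an SE of 0.13. Psmd7, Psmd10 and Psmc4 of the cap had differences of -1.59 ± 0.23, -1.52 ± 0.19 and -1.37 ± 0.18. The 2 members that rose were Psmb8 (0.36 ± 0.14, adjusted p = 0.038) and Psmb9 (0.44 ± 0.16, adjusted p = 0.028). From P28 to 4 months 31 were called higher and 2, Psmd3 and Psmb2, lower (31.5% and 25.5% of all genes), and after quantile normalization 19 were higher and 4 lower. All 8 skeletal muscle markers were called lower from P28 to 4 months, with log2 differences of -5.11 to -4.24, and all 8 lay higher at P28 than at P5 with 1 called (Pvalb, list median 1.80). Of 10 lymphocyte markers 6 were called higher from P5 to P28 and 5 lower from P28 to 4 months. The lymphocyte markers averaged well below the array medians at P5 and 4 months. Arrays of P28 also had narrower value ranges than those of P5 and 4 months. The adipocyte markers Cidec (3.69), Lep (3.16), Adipoq (2.94) and Fabp4 (1.09) were all called higher from P5 to P28. Of the macrophage markers Cd68, Csf1r, Lyz2, C1qa, C1qb, Mrc1 and Cd14 were called higher and Aif1 lower over the same ages. The part of the muscle, lymphocyte, adipocyte and macrophage markers and of the value ranges in the members' values was not tested.

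P5 and 4 months have arrays of like value ranges, and their comparison in WT was added after the data were seen. It called 22 members lower and 3 higher, where 15.5% of all genes were called lower and 21.3% higher. The median of the members was -0.33, against 0.03 over all genes. All 3 constitutive catalytic subunits fell: Psmb5 read 11.13 and 10.98 at P5 and 10.51 and 10.48 at 4 months (-0.56 ± 0.10), Psmb6 differed by -0.40 ± 0.13 and Psmb7 by -0.41 ± 0.12. All 4 structural beta subunits fell as well, by 0.36 to 0.62. Of the alpha ring 2 of 8 were called lower, Psma4 (-1.05 ± 0.14) and Psma5 (-0.68 ± 0.13), and of the cap 10 of 20, with Psmd13 the lowest (-1.09 ± 0.19). Psma1, Psma2, Psma3, Psma7 and Psma8 also had lower means at 4 months without a call, and Psma6 a higher one. All 8 skeletal muscle markers lay lower at 4 months than at P5, with Acta1, Myh1 and Mylpf called and a list median of -2.89. Of the 7 Schwann cell markers Mag and Gjb1 were called lower and S100b higher. Adipocyte, macrophage and endothelial markers also shifted, as given below. The part of all these markers in the falls was not tested. Left-out arrays gave 14 to 20 calls in place of 25, with 14 without WT P5 replicate 1 and 16 without WT 4 months replicate 2.

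The 3 that rose between P5 and 4 months have interferon-induced expression in common as background. Psmb8 read 7.998 and 7.74 at P5 and 9.38 and 8.89 at 4 months, a rise of 1.27 ± 0.14 (2.41-fold). Psmb9 read 6.78 and 6.55 at P5 and 7.73 and 7.79 at 4 months, a rise of 1.09 ± 0.16. Psme1, a subunit of the activator that works with the immunoproteasome, read 9.53 and 9.37 at P5 and 10.23 and 10.01 at 4 months, a rise of 0.67 ± 0.10. In each of the 3 genes both 4-month arrays lay above both P5 arrays. Psmb10 was not called, with 9.21 and 9.20 at P5 and 9.15 and 9.15 at 4 months (-0.06 ± 0.11).

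In the gene order of the mouse genome Psmb9, Tap1, Psmb8 and Tap2 are neighbours on chromosome 17. Tap1 and Tap2 carry peptides into the endoplasmic reticulum for presentation. Between P5 and 4 months Tap1 rose by 0.41 ± 0.14 and Tap2 by 0.83 ± 0.11. All 10 measured antigen-processing partners were called higher (median 0.93), and 8 of 13 interferon-induced genes higher with 1, Rsad2, lower. These counts stand beside 21.3% of all genes called higher and 15.5% lower. Macrophage markers had 4 of 12 called higher and 1 lower, and averaged 8.75 to 8.85 at P5 and 9.03 to 9.16 at 4 months. Lymphocyte markers had 0 of 10 called in limma and averaged 4.75 to 4.86 and 4.84 to 4.99. The 4 adipocyte markers averaged 7.89 to 8.41 and 11.44 to 11.59, and all 4 were called higher. Of 7 endothelial markers 5 were called higher (Vwf, Cdh5, Tek, Cldn5 and Emcn), with means of 8.13 to 8.17 and 8.78 to 8.88, and of 6 pan-leukocyte markers Ptprc and Lcp1. The part of these cells in the rise of Psmb8 and Psmb9 was not tested.

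**Figure D5:**
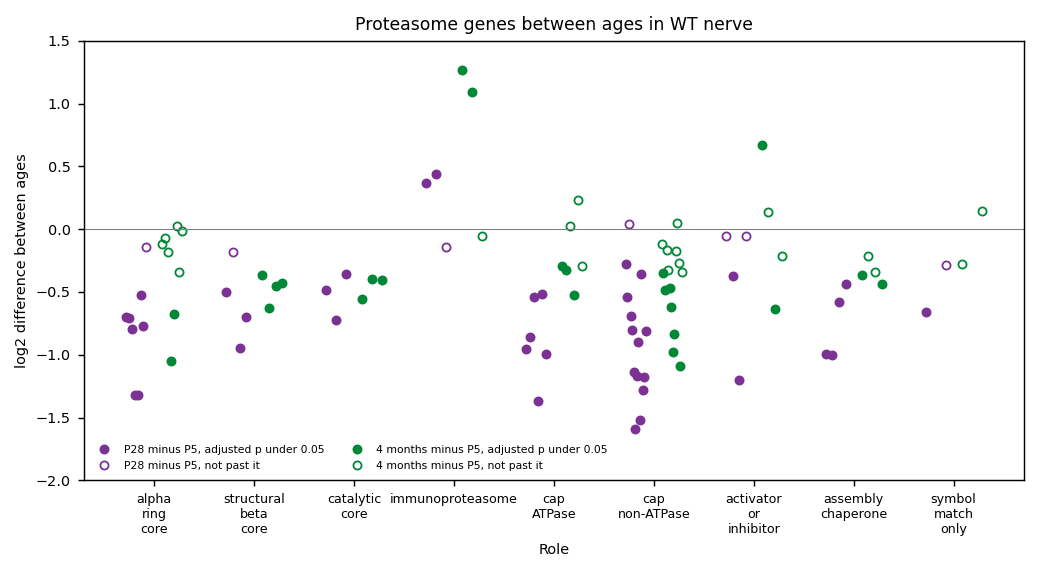
Log2 differences between ages in WT nerve for the 48 genes by role, as P28 minus P5 (purple) and 4 months minus P5 (green), from 2 arrays against 2; filled points have an adjusted p under 0.05. Psmb8 and Psmb9 stand above 0 in both, Psme1 at 4 months (0.67), and most core and cap genes lie below 0.

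Genes that feed the proteasome moved in part. Of 7 measured genes of the p97 complex, which pulls ubiquitin-tagged proteins out of membranes and complexes for degradation, 0 were called in S63del against WT at P5 (1.15% of all genes higher) and Vcp alone at P28 (3.01% higher), with a difference of 0.46 ± 0.12 and adjusted p = 0.037, while all 7 lay above 0 at both ages. Over carriers 4 of 7 were called higher at P5, namely Vcp (0.31 ± 0.09), Nploc4 (0.50 ± 0.11), Ufd1 (0.62 ± 0.11) and Nsfl1c (0.39 ± 0.08), where 2.87% of all genes were called higher, and 5 of 7 at P28, with Ubxn1 added, where 16.1% were. The list's medians were 0.33 and 0.36. Of 11 factors that bind the cap, only Zfand2a was called in S63del against WT at P5 (0.89 ± 0.19, adjusted p = 0.016), a heat- and arsenite-induced partner of the cap. At P28 it was not called (adjusted p = 0.99).

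Of 12 measured genes for ubiquitin activation and chain building 0 were called at P5 in S63del against WT and 1 lower at P28, where 1.61% of all genes were called lower. This was Stub1 (-0.58 ± 0.13, adjusted p = 0.017), a ligase that works with chaperones. Ube2g2, a conjugating enzyme of endoplasmic reticulum degradation, was called higher in carriers at P5 (0.25 ± 0.06) and P28 (0.38 ± 0.06). Nfe2l1, the factor known to raise proteasome genes, differed by 0.04 ± 0.18 at P5 and -0.14 ± 0.18 at P28 in S63del against WT. In WT it was 1.69 ± 0.18 higher at 4 months than at P5. Pomp, a chaperone that closes the core, was 0.33 ± 0.11 higher in S63del at P5 without a call (adjusted p = 0.18). The 4 polyubiquitin and ubiquitin fusion genes of the list had no probe set with a single symbol and are not analysed here.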

How the data were processed

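Sciatic nerve RNA of 24 mouse samples was read on 1-colour Affymetrix arrays from biotin-labelled cRNA, per the labels' protocols. The deposited values are log2 expression for 22690 probe sets. The scale was read from their range of 2.46 to 14.3; no source used here gives the software or normalization behind them, and no count depth exists for arrays, whose number limits the precision. Genes were named from the platform annotation, which can be old: 20380 probe sets had 1 symbol, 691 several, 1555 none, and 64 were controls. The probe set with the highest mean stood for each of 12393 genes, with no filter on dim genes.

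One model of the 12 group means was fitted with limma 3.58.1 in R 4.3.3 (lmFit and eBayes) over all 24 arrays, which leaves 12 residual degrees of freedom. P-values were adjusted by Benjamini-Hochberg over the 12393 genes and called under 0.05. The script was first tested on simulated data. The rule for named genes took members called in any genotype comparison, the catalytic and immunoproteasome subunits, activators, inhibitor and chaperones, the 2 members of each class with the largest S63del difference at each age, up to 4 genes of each pathway list with the smallest p in S63del against WT, and Ddit3; other genes were named after their values were seen. The members and gene lists were chosen with earlier results of these data known. Alternatives were array weights, each age fitted alone, a filter at the 40th percentile, the mean of all probe sets, quantile normalization, a replicate block, trend and robust moderation, and left-out arrays. Promoter sequences came from RefSeq.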

Additional observations from a re-analysis of the deposited data

Results flagged for a closer look

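For 12 members the effect of carrying S63del, as carriers minus others in limma, differed between ages by a test of that difference. Pooling the carriers was added after the data were seen. Of all genes, 0.694% were called lower for 4 months minus P5 and 1.98% for 4 months minus P28. In limma S63del against WT alone called no member for 4 months minus P5 (smallest adjusted p = 0.14). Both pooled counts changed with left-out arrays, as given above. For 4 months minus P28 the 2479 brightest genes had a median change of -0.13. The part of the value ranges at P28 in these calls was not tested. From P5 to 4 months the effect changed by -0.81 in Psmb3 (adjusted p = 0.0081), -0.62 in Psmd2, -0.59 in Psmd3, -0.58 in Psmd4, -0.55 in Psmb5, -0.54 in Psmd11, -0.50 in Psmc1 and -0.46 in Psmd1. From P28 to 4 months it changed by -0.97 in Psmc4 (adjusted p = 0.0091), -0.63 in Psma5, -0.59 in Psmd14, -0.57 in Psmd2, -0.50 in Psma2, -0.46 in Psmc1 and -0.45 in Psmb5. Psmb5, the catalytic subunit, Psmc1 and Psmd2 are in both lists. In each of these genes the carriers stood higher at the younger age.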

How the results depend on the processing

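Counts are of members called, with the count reported above in parentheses. The shares of all genes called under these settings are not given here, so a change in count may not be particular to the members. For S63del against WT at P5 (10), array weights gave 31, the age fitted alone 25, the fit without Chop null P28 replicate 2 and WT 4 months replicate 1, an alternative chosen after seeing the data, 23, and left-out arrays 1 to 4. At P28 (10) the age alone gave 0, the filter 19, the mean of all probe sets 6, the replicate block 6, trend and robust moderation 20, the fit without those 2 arrays 26 and left-out arrays 1 to 9. The average over ages (25) went from 13 to 29 with left-out arrays. For S63del/Chop null against Chop null, P5 (9) gave 31 with array weights, 24 for the age alone, 20 without the 2 arrays and 0 to 2 with left-out arrays, and P28 (20) gave 0, 0 and 4 for the same settings, 12 after quantile normalization and 3 to 29 with left-out arrays. Carriers against others at P5 (27) gave 16 to 23 with left-out arrays, and at P28 (31) 18 with array weights, 3 for the age alone and 22 to 36. The carrier effect at 4 months minus P5 (8) gave 21 with array weights, 13 with trend and robust moderation, 19 without the 2 arrays and 5 to 10, and minus P28 (7) 3 with array weights and 2 to 28. The S63del effect at 4 months minus P5 (0) gave 3 with array weights and 1 without the 2 arrays. Left-out arrays gave 0 to 17 for loss of Chop at P28 (0), 0 to 12 for the interaction at P28 (0), 14 to 20 for WT 4 months against P5 (25), 35 to 37 for WT P28 against P5 (41) and 24 to 31 for WT 4 months against P28 (33). A group with an array left out keeps 1, which is assumed to vary like the other groups.

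Psmb1 reversed at P28 with the mean of all probe sets, to -0.0949 in S63del against WT and -0.0935 in carriers. The cause of these changes was not tested. No other member called in S63del against WT (P5, P28 or averaged) or in carriers against others (P5 or P28) changed sign. A kept sign is not a kept call. In S63del against WT no member called at P28 kept its call in every setting run, left-out arrays included. Most of those called at P5 or averaged over ages also lost the call in some setting. In carriers against others most calls at P28 were lost in some setting, while a majority at P5 were kept in all. Single members were not followed in the other comparisons. At 4 months every genotype comparison listed above kept 0 calls in each setting run. Quantile normalization left 34 members lower from P5 to P28 in WT, and 19 higher and 4 lower from P28 to 4 months. Same-numbered arrays do not pair: correlations of their deviations ran from -0.477 to 0.349, and the replicate block gave 9 calls at P5.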
